A study of Homo sapiens with 6 samples.

Results

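The 8 genes of the suppressor of cytokine signaling family, *CISH* and *SOCS1* to *SOCS7*, were examined in MDA-MB-453 cells after depletion of the ERK phosphatase gene *DUSP6*. They were taken by gene symbol, 8 of the 22807 genes of the expression table. All 8 had a mean value of at least 1 over all libraries and were tested. MDA-MB-453 is an established HER2+ breast cancer cell line. RNA was sequenced from 3 libraries of cells labelled as scrambled (SCR) and from 3 libraries labelled as *DUSP6* knockdown (*DUSP6* KD), called scrambled siRNA and *DUSP6* siRNA here. The knockdown was a transient siRNA transfection of 1 cell line, for which the authors name 3 *DUSP6* siRNAs and 3 scrambled controls. Which siRNA went into which library, the cultures behind the replicates and the time after transfection are not given in the sources used here. P-values therefore measure the spread between these libraries, which may in part be technical and in part come from different siRNAs. The question put to the libraries was which gene programs depend on *DUSP6*.

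SOCS proteins are feedback brakes on cytokine receptors. Cytokines such as interferons, prolactin and interleukin-6 activate receptor-bound JAK kinases, which phosphorylate STAT transcription factors, and STATs switch on *CISH*, *SOCS1*, *SOCS2* and *SOCS3* among other genes. The SH2 domain of a SOCS protein binds phosphotyrosines on the receptor or the kinase, and its SOCS box recruits elongins and a cullin ubiquitin ligase that marks the bound protein for degradation. SOCS1 and SOCS3 also block the kinase directly. SOCS4 to SOCS7 are better known for binding growth factor receptors and their adaptors than for cytokine feedback.

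*DUSP6* itself (chromosome 12) had values of 110 to 209 with scrambled siRNA and of 24.5 to 39.4 with *DUSP6* siRNA (limma log2 fold change -2.05, adjusted p = 3.09e-04). The groups did not overlap. Its values carry 1 limit, since exons of an antisense transcript cover 24.1% of its exon bases. The libraries held 45546981 to 85729785 reads. Log2 values correlated at 0.987 to 0.990 among the scrambled siRNA libraries and at 0.995 to 0.998 among the *DUSP6* siRNA libraries. All 12 luminal and apocrine breast markers were tested and expressed, with summed values of 6328 to 7847 with scrambled siRNA and 4412 to 4757 with *DUSP6* siRNA, and 9 of them were lower. Of 6 basal breast markers 3 were tested, with *KRT17* higher (0.875 and 14.7 on average) and *TP63* (10.1 and 1.76) and *MYLK* lower, and the list summed to 10.6 to 18.8 with scrambled siRNA and 14.8 to 21.0 with *DUSP6* siRNA. The part of these marker changes in the results was not tested. Endothelial markers summed to at most 0.422 and leukocyte markers to at most 5.87, with *PTPRC* at 0.0546 or less on average, while the fibroblast list summed to 80.9 to 105 and to 162 to 192, nearly all of it from *COL1A1*, with *COL1A2* and *COL3A1* below 0.06 on average in both groups.

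A value here is a read count divided by the size of its library, after scaling between libraries, and fold changes are on the scale of log2(value + 1), which understates the changes of genes with low values. With *DUSP6* siRNA 2 members fell, *CISH* and *SOCS2*, and 2 rose, *SOCS1* and *SOCS7*. The other 4 did not pass the test. *SOCS1* averaged below 1 with scrambled siRNA and entered the test only through the *DUSP6* siRNA libraries, so the filter in part fixed its direction. *CISH* had by far the largest change, with a mean value that fell from 81.9 to 15.6. The family count itself did not stand apart. In all, 4 of 8 members (50.0%) were called at an adjusted p under 0.05, beside 44.5% of the 12862 genes tested. Higher calls made up 19.7% and lower calls 24.7% of all genes tested, against 2 of 8 members in each direction. The groups did not overlap in 5 of 8 members, beside 57.8% of all genes tested. In bulk RNA, fewer cells with a transcript and less of it per cell cannot be told apart.

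**Figure D1:**
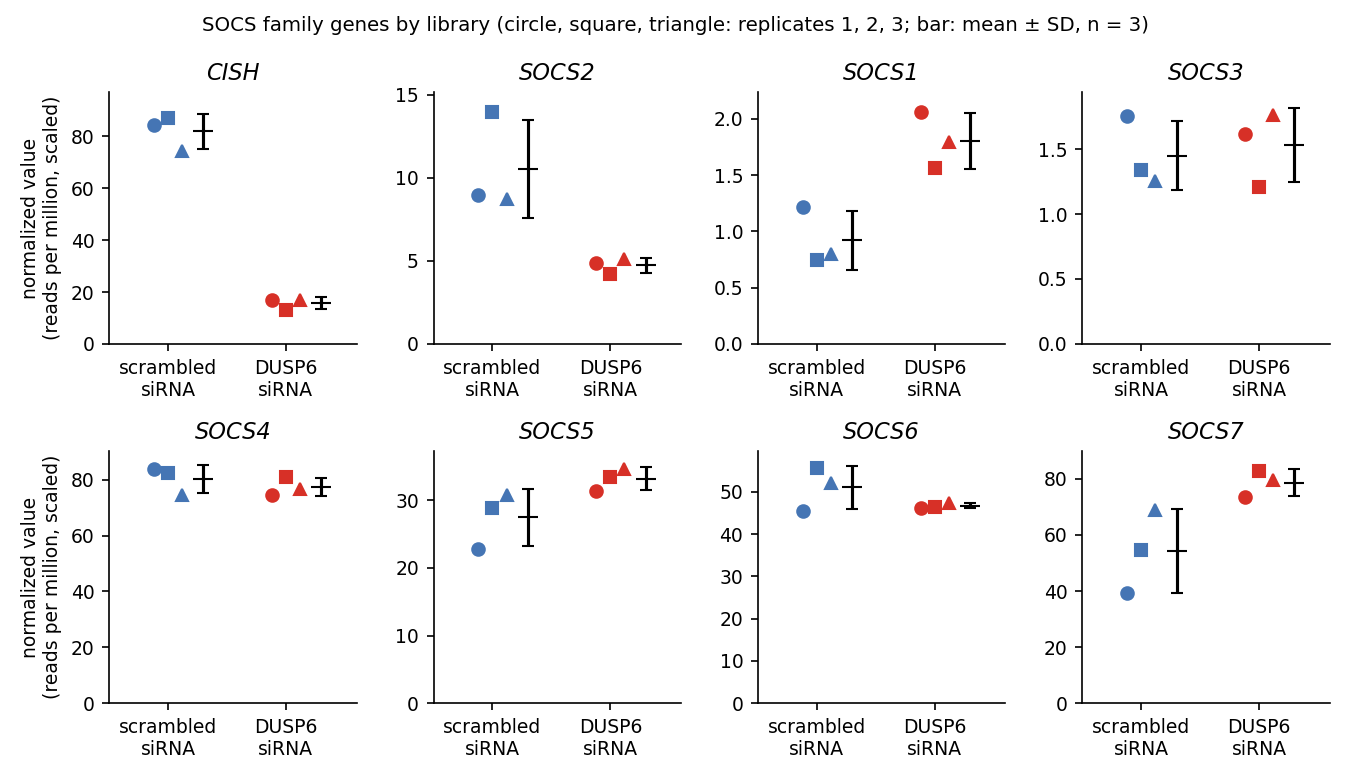
Normalized value (reads relative to the scaled library size, linear axis from 0) of each SOCS family gene in each library. Points are libraries, with the shape giving the replicate number, and bars are the mean ± SD of 3 libraries. *CISH* and *SOCS2* sit lower and *SOCS1*, *SOCS5* and *SOCS7* higher in all 3 *DUSP6* siRNA libraries, while *SOCS3*, *SOCS4* and *SOCS6* overlap.

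*CISH* (Entrez gene 1154, chromosome 3 from 50606489 to 50611774 of GRCh38, minus strand, 3 exons) encodes a protein that docks on activated prolactin, growth hormone and erythropoietin receptors, where it competes with STAT5. Its promoter is a textbook STAT5 target. The bases next to its start are shown because *CISH* carries the largest change of the family, from RefSeq's promoter window on GRCh38.p14, 5′ to 3′ on the strand of the gene. Capitals mark TTCNNNGAA, the palindromic core of the GAS element that STAT dimers bind, which reads the same on both strands.

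CISH, chr3:50611775-50611907, the 133 bases before the start: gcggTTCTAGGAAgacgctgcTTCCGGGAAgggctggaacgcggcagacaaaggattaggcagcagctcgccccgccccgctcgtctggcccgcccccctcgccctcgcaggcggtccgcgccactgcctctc

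CISH, chr3:50611991-50612020, the distal pair with 5 bases on either side: ccgttTTCCTGGAAagTTCTTGGAAatctg

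The 250 bases before the *CISH* start held 4 such cores, whose first bases lie 241, 230, 129 and 112 bases before it. The 133 bases next to the start are clear of exons. The other 117, which hold the distal pair, lie in exons of the neighboring gene *MAPKAPK3*. At least 1 core was found in 6.57% of 35116 RefSeq promoter windows of the same length, and 4 or more in 5 of them. A match of letters is a description of the window and not evidence of binding. The window was searched in 5 of the 8 members. The windows of *SOCS3* (at 2 starts), *SOCS4* and *SOCS6* held no GAS-type core, and *SOCS2*, *SOCS5* and *SOCS7* were not searched. Of the 250 bases in each *SOCS3* window, 250 lie in exons of *SOCS3-DT* at 1 start and 168 in exons of *SOCS3* at the other. The bases between these windows were not searched, so a core elsewhere in the *SOCS3* promoter would have been missed.

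In the libraries, *CISH* had values of 84.2, 87.2 and 74.3 with scrambled siRNA (replicates 1, 2 and 3) and of 17.1, 12.9 and 16.7 with *DUSP6* siRNA (replicates 1, 2 and 3). Each *DUSP6* siRNA library was far below each scrambled siRNA library, and the 3 libraries of a group lay close together. The group mean dropped from 81.9 ± 6.76 (SD, n = 3) to 15.6 ± 2.32 (SD, n = 3), that is, to 19.0% of the scrambled siRNA level. The log2 fold change was -2.33 (standard error 0.13, 95% interval -2.61 to -2.04, limma adjusted p = 4.31e-06). Of the 12862 genes tested, 20 had a lower fold change. At least 845 reads stood behind each value. The two-sided exact permutation test gave p = 0.1, the smallest that 3 libraries against 3 allow.

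*CISH* starts next to *MAPKAPK3*, a kinase gene on the opposite strand whose RefSeq span overlaps that of *CISH*, and *MAPKAPK3* exons cover 5.30% of the *CISH* exon bases, where the counting could not tell the genes apart. *MAPKAPK3* also fell, from 84.6 ± 11.4 (SD, n = 3) to 53.6 ± 0.532 (SD, n = 3) (limma log2 fold change -0.64, adjusted p = 0.00186). *HEMK1*, the nearest tested gene on the other side, was at 37.1 ± 8.86 (SD, n = 3) and 35.1 ± 1.49 (SD, n = 3) and was not called (limma adjusted p = 0.80).

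The profile of *CISH* over the 6 libraries was most like those of *TPD52L1*, *MGLL* and *BLNK*. Likeness was the root mean square difference in log2(value + 1), each gene centred on its scrambled siRNA mean, and came to 0.0941 for *TPD52L1*, 0.108 for *MGLL* and 0.117 for *BLNK*, beside a median of 1.65 over 12861 genes. Centring leaves mainly the change between the groups, so a small value mostly means a fall of like size. *TPD52L1* fell from 99.2 to 19.1 on average, *MGLL*, the monoglyceride lipase gene, from 15.2 to 2.57, and *BLNK*, a B cell adaptor gene, from 21.7 to 3.55.

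*SOCS2* (Entrez gene 8835, chromosome 12 from 93569969 to 93626236) is the closest relative of *CISH* and encodes the main brake on the growth hormone receptor. Its values were 8.94, 13.9 and 8.74 with scrambled siRNA (replicates 1, 2 and 3) and 4.87, 4.21 and 5.08 with *DUSP6* siRNA (replicates 1, 2 and 3). All *DUSP6* siRNA libraries lay below the lowest scrambled siRNA library, and scrambled siRNA replicate 2 stood above the other two. The group mean dropped from 10.5 ± 2.95 (SD, n = 3) to 4.72 ± 0.458 (SD, n = 3). The limma estimate on the log2 scale was -0.99 (standard error 0.17, 95% interval -1.38 to -0.60, limma adjusted p = 0.00196). Its nearest tested neighbors, *MRPL42* (limma adjusted p = 0.531) and *CRADD* (limma adjusted p = 0.205), were not called.

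*CISH* fell further than *SOCS2*. The log2 ratio of *CISH* to *SOCS2* within a library, which does not depend on the scaling between libraries except through the added 1, was 3.10, 2.56 and 2.95 with scrambled siRNA (replicates 1, 2 and 3) and 1.62, 1.42 and 1.54 with *DUSP6* siRNA (replicates 1, 2 and 3). The mean ratio was 1.34 lower with *DUSP6* siRNA, without overlap (exact permutation test, two-sided, p = 0.1, the smallest possible).

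*SOCS1* (Entrez gene 8651, chromosome 16 from 11254417 to 11256204, minus strand, 2 exons) encodes the strongest brake on interferon signaling, acting on JAK1, JAK2 and TYK2. The 250 bases before its start are printed because it was the member of the interferon branch that rose. Capitals mark the single match to GAAANNGAA, the core of the interferon-stimulated response element, searched on both strands and found in 6.88% of the 35116 windows. No GAS-type core lay in the window.

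SOCS1, chr16:11256205-11256454: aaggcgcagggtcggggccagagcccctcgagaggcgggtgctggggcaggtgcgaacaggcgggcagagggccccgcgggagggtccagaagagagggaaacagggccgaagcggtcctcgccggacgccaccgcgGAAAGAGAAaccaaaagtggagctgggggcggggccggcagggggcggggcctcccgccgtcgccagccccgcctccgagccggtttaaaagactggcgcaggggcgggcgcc

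The values of *SOCS1* were 1.22, 0.747 and 0.795 with scrambled siRNA (replicates 1, 2 and 3) and 2.06, 1.57 and 1.79 with *DUSP6* siRNA (replicates 1, 2 and 3). These are low levels, from 39 to 128 reads per library, and 1.48% of the genes tested had a lower scrambled siRNA mean. Every *DUSP6* siRNA library was above every scrambled siRNA library. The group mean went up from 0.921 ± 0.260 (SD, n = 3) to 1.81 ± 0.249 (SD, n = 3), a ratio of 1.96. On the log2(value + 1) scale the fold change was 0.55 (standard error 0.13, 95% interval 0.25 to 0.85, limma adjusted p = 0.00920), and edgeR on the recovered reads, without the added 1, gave 0.96 (edgeR quasi-likelihood test, adjusted p = 0.0104). The scrambled siRNA mean alone lay under the filter of 1, so a fall of *SOCS1* would have kept it out of the main test. Without the filter *SOCS1* was also called higher (limma adjusted p = 0.0161). Of its tested neighbors, *RMI2* fell (limma log2 fold change -1.32, adjusted p = 1.07e-04), and *CLEC16A* was not called (limma adjusted p = 0.580).

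*SOCS3* (Entrez gene 9021, chromosome 17 from 78356778 to 78360925) encodes the brake on gp130, the shared receptor chain of interleukin-6, LIF and oncostatin M. It had values of 1.76, 1.34 and 1.25 with scrambled siRNA (replicates 1, 2 and 3) and of 1.62, 1.21 and 1.76 with *DUSP6* siRNA (replicates 1, 2 and 3). The groups overlapped throughout. The log2 fold change was 0.05 (95% interval -0.25 to 0.34, limma adjusted p = 0.801), and its sign turned under quantile normalization. With 70 to 118 reads per library, *SOCS3* was as scarce as *SOCS1*. The log2 ratio of *SOCS1* to *SOCS3* was -0.42 to -0.31 in the scrambled siRNA libraries and 0.02 to 0.23 in the *DUSP6* siRNA libraries, a difference of 0.51 without overlap (exact permutation test, two-sided, p = 0.1, the smallest possible).

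**Figure D2:**
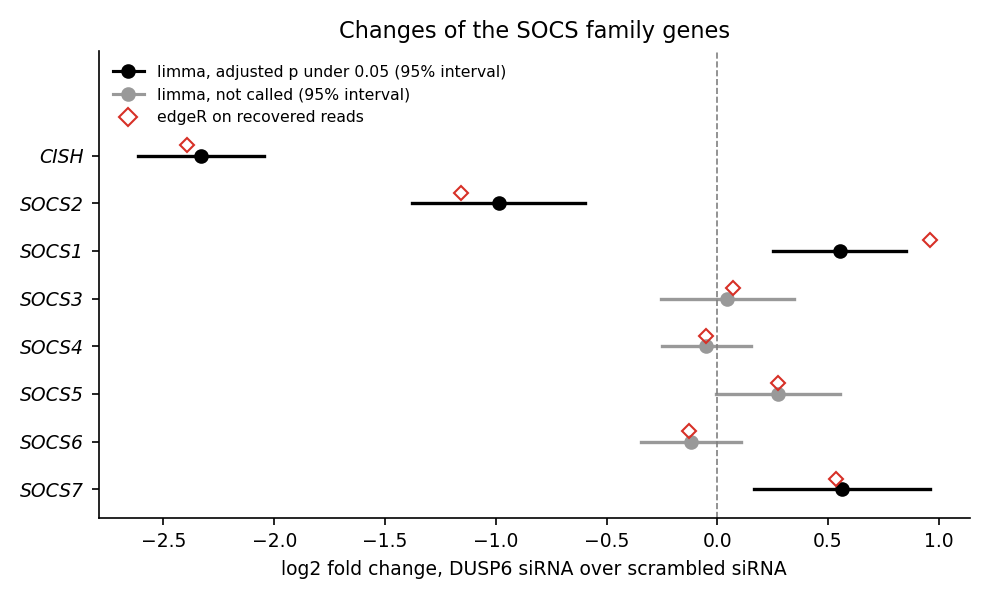
Log2 fold change of each SOCS family gene, *DUSP6* siRNA over scrambled siRNA. Circles and lines are the limma estimate on log2(value + 1) and its 95% interval, black where the adjusted p was under 0.05 and grey otherwise, and open diamonds are edgeR estimates on recovered reads. *CISH* lies at -2.33 and *SOCS2* at -0.99, *SOCS1* and *SOCS7* at 0.55 and 0.56, and the intervals of the other 4 include 0.

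*SOCS7* (Entrez gene 30837, chromosome 17 from 38351844 to 38405593, 10 exons) encodes a protein that binds the adaptors NCK and GRB2 and the insulin receptor substrates. Its values were 39.2, 54.8 and 68.9 with scrambled siRNA (replicates 1, 2 and 3) and 73.6, 82.8 and 79.6 with *DUSP6* siRNA (replicates 1, 2 and 3). The scrambled siRNA libraries were widely spread, and the highest of them came close to the lowest *DUSP6* siRNA library. The group mean went up from 54.3 ± 14.8 (SD, n = 3) to 78.7 ± 4.67 (SD, n = 3). The limma estimate on the log2 scale was 0.56 (standard error 0.18, 95% interval 0.16 to 0.96, limma adjusted p = 0.0289). The call was a narrow one. It was lost without the filter on low values (limma adjusted p = 0.0652) and when any 1 library other than scrambled siRNA replicate 3 was left out (5 of 6 fits), with a fold change of 0.35 without scrambled siRNA replicate 1. *SOCS7* rose between neighbors that fell. *MRPL45* went from 40.3 ± 14.5 (SD, n = 3) to 24.3 ± 1.35 (SD, n = 3) (limma log2 fold change -0.66, adjusted p = 0.0290), and *SRCIN1* from 46.6 ± 12.8 (SD, n = 3) to 21.8 ± 1.62 (SD, n = 3) (limma log2 fold change -1.03, adjusted p = 0.00187).

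*SOCS6* (Entrez gene 9306, chromosome 18), whose protein binds KIT and other receptor kinases, had values of 45.4, 55.6 and 52.2 with scrambled siRNA (replicates 1, 2 and 3) and of 46.3, 46.6 and 47.5 with *DUSP6* siRNA (replicates 1, 2 and 3). The groups overlapped, and the log2 fold change was -0.12 (95% interval -0.34 to 0.11, limma adjusted p = 0.352). Within libraries, the log2 ratio of *SOCS6* to *SOCS7* was -0.39 to 0.21 with scrambled siRNA and -0.82 to -0.66 with *DUSP6* siRNA, 0.68 lower on average and without overlap (exact permutation test, two-sided, p = 0.1, the smallest possible).

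*SOCS4* (Entrez gene 122809, chromosome 14) and *SOCS5* (Entrez gene 9655, chromosome 2) encode closely related proteins known for lowering the EGF receptor. *SOCS4* ranged from 74.5 to 83.9 with scrambled siRNA and from 74.7 to 80.9 with *DUSP6* siRNA. Its log2 fold change was -0.05 (95% interval -0.25 to 0.15, limma adjusted p = 0.672). Under quantile normalization the estimate was 0.05. *SOCS5* had values of 22.8, 28.9 and 30.7 with scrambled siRNA (replicates 1, 2 and 3) and of 31.3, 33.5 and 34.7 with *DUSP6* siRNA (replicates 1, 2 and 3). Here the groups did not overlap, but the gap was smaller than the spread of the scrambled siRNA libraries, and the log2 fold change of 0.27 was not called (95% interval -0.01 to 0.55, limma adjusted p = 0.102). Without scrambled siRNA replicate 3 it was called, at 0.36 (limma adjusted p = 0.0346). The log2 ratio of *SOCS4* to *SOCS5* was 1.25 to 1.84 with scrambled siRNA and 1.12 to 1.25 with *DUSP6* siRNA, 0.32 lower on average (exact permutation test, two-sided, p = 0.1, the smallest possible).

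**Figure D3:**
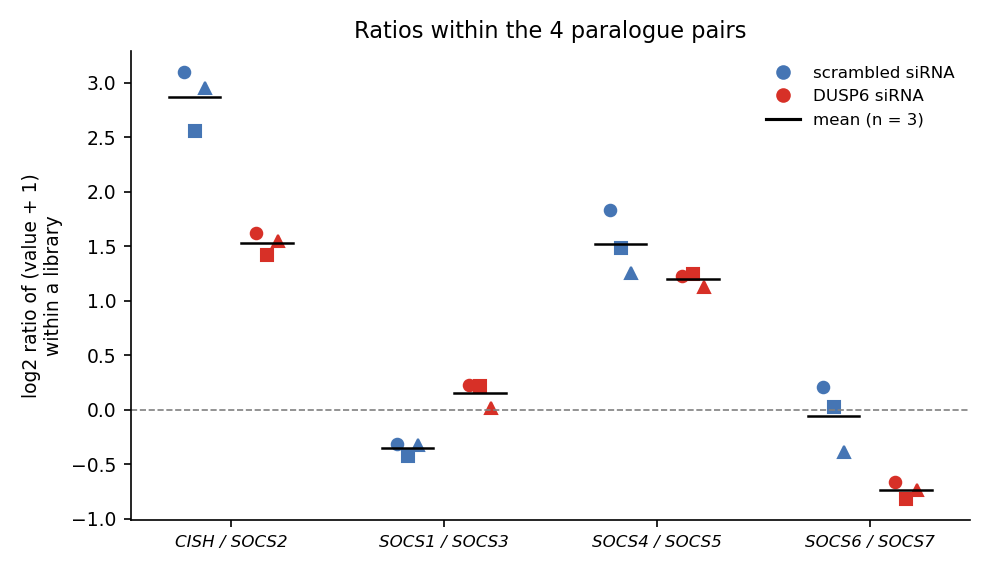
Log2 ratio of (value + 1) between the members of each of the 4 closest pairs, within each library. Points are libraries (blue, scrambled siRNA; red, *DUSP6* siRNA; circle, square and triangle for replicates 1, 2 and 3) and black lines are means of 3. The *CISH* to *SOCS2* ratio is 1.34 lower and the *SOCS1* to *SOCS3* ratio 0.51 higher with *DUSP6* siRNA.

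To compare levels between genes, values were divided by the length of the MANE Select transcript in kb. With scrambled siRNA, *CISH* was the most abundant member at 40.6 ± 3.35 (SD, n = 3) per kb. It was followed by *SOCS4* at 11.6, *SOCS6* at 8.96, *SOCS7* at 6.57, *SOCS5* at 5.76 and *SOCS2* at 4.42 per kb. *SOCS1* at 0.744 and *SOCS3* at 0.530 per kb were the scarcest. The ranges of *SOCS6* and *SOCS7*, *SOCS7* and *SOCS5*, *SOCS5* and *SOCS2*, and *SOCS1* and *SOCS3* overlapped, so the order within these pairs was not beyond the spread. With *DUSP6* siRNA, *SOCS4* led at 11.2 per kb, followed by *SOCS7* at 9.53, *SOCS6* at 8.20, *CISH* at 7.72 and *SOCS5* at 6.96. *SOCS2* at 1.98, *SOCS1* at 1.46 and *SOCS3* at 0.560 per kb came last. *CISH* no longer stood apart, since its range overlapped those of *SOCS6* and *SOCS5*.

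The summed level of the 8 genes per kb was 76.3 to 84.5 in the scrambled siRNA libraries and 46.8 to 48.9 in the *DUSP6* siRNA libraries. *CISH* made up 51.2% ± 3.06 (SD, n = 3) of the scrambled siRNA sum but 16.2% ± 2.24 (SD, n = 3) of the *DUSP6* siRNA sum. *SOCS4* to *SOCS7* together took most of the sum after *DUSP6* siRNA, with *SOCS4* alone at 23.6% ± 1.28 (SD, n = 3). *SOCS1* and *SOCS3* stayed at or below 3.53% in every library.

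**Figure D4:**
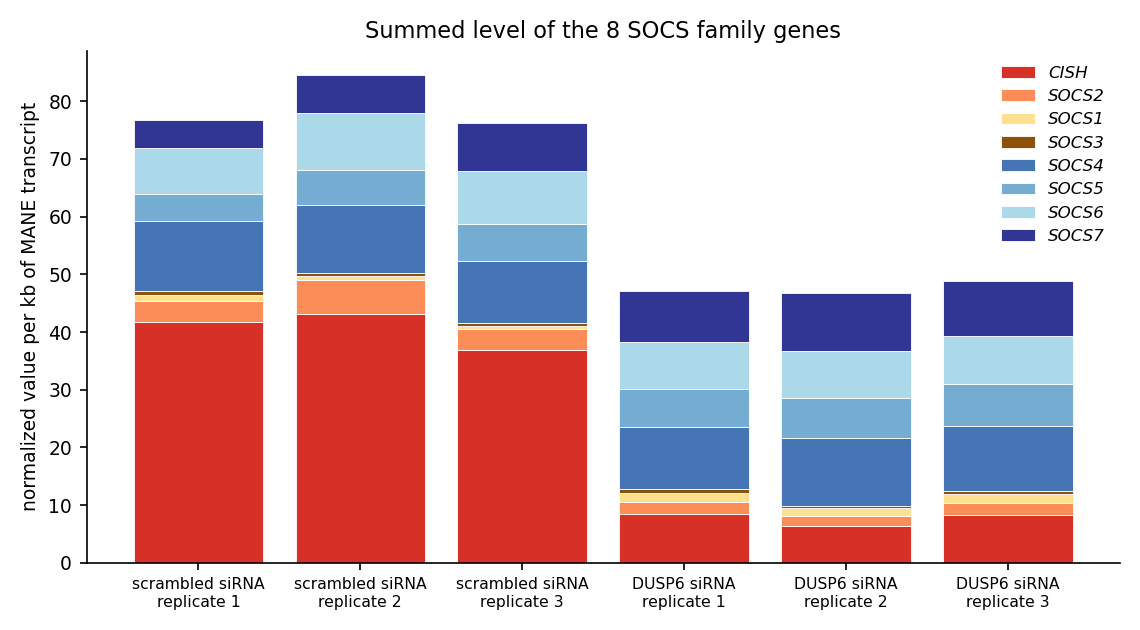
Normalized value per kb of MANE Select transcript of the 8 SOCS family genes, stacked per library on a linear axis from 0. The sum lies between 76.3 and 84.5 in the scrambled siRNA libraries and between 46.8 and 48.9 in the *DUSP6* siRNA libraries, and the red segment of *CISH* is the one that shrinks most.

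The signaling genes around the family were described from lists of well-known members, by counts beside those of all genes tested, of which 19.7% were higher and 24.7% lower, with a median log2 fold change of -0.01. Among cytokines that signal through JAK kinases, 9 of 24 listed genes were tested, of which limma called 5 higher and 0 lower. The 5 were the interferon genes *IFNL1*, *IFNL2*, *IFNL3* and *IFNB1* and the gene of interleukin-15. All 5 averaged below 1 with scrambled siRNA and passed the filter through the *DUSP6* siRNA libraries. A gene near 0 with scrambled siRNA could enter the test only by rising, so the filter in part fixed the split of 5 to 0. Under the same filter, none of the 9 tested was lower at an unadjusted p under 0.05 or by edgeR. With a mean value of at least 10, 0 were called higher. *IFNL1* averaged 0.0579 in the scrambled siRNA libraries and 12.9 ± 4.37 (SD, n = 3) in the *DUSP6* siRNA libraries, and *IFNB1* averaged 0.0451 and 3.31 ± 1.58 (SD, n = 3). The sequences of *IFNL2* and *IFNL3* are nearly the same, which leaves the split of reads between them uncertain. *IL15* rose from 0.574 ± 0.151 (SD, n = 3) to 2.38 ± 0.473 (SD, n = 3). The genes of growth hormone and erythropoietin averaged below 0.03 in both groups. *LIF*, *IL11*, *IL7* and *CLCF1* were tested and not called. The interferon genes moved with the groups together with *DUSP6*, and whether the rise of *SOCS1* followed the loss of *DUSP6* or the siRNAs cannot be told apart, since every library with low *DUSP6* had received a *DUSP6* siRNA.

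Among 22 receptor chains, 16 were tested, with 6 higher and 3 lower and a median log2 fold change of 0.02. With a mean value of at least 10, 2 were higher, and without the filter 7 were higher and 4 lower. *CSF3R* stood below the filter at 1.70 with scrambled siRNA and 0.177 with *DUSP6* siRNA on average. *IL6ST*, which encodes gp130, rose from 4.92 ± 0.516 (SD, n = 3) to 14.8 ± 2.81 (SD, n = 3) (limma log2 fold change 1.41, adjusted p = 1.23e-04). The leptin receptor gene *LEPR* rose by 1.34 and *LIFR*, the partner of gp130 for LIF, by 0.77 on the log2 scale. *LIFR* averaged 0.993 with scrambled siRNA and 2.45 with *DUSP6* siRNA. It thus passed the filter only through the *DUSP6* siRNA libraries, whereas the same filter kept out *CSF3R*, whose mean was lower with *DUSP6* siRNA. Of the receptors of the hormones that *CISH* and *SOCS2* restrain, *EPOR*, the erythropoietin receptor gene, had a log2 fold change of -0.27 and was not called (limma adjusted p = 0.0817). *PRLR*, the prolactin receptor gene, fell from 257 ± 59.8 (SD, n = 3) to 146 ± 2.52 (SD, n = 3) (limma log2 fold change -0.78, adjusted p = 0.00317). *GHR*, the growth hormone receptor gene, which was chosen after its values were seen, fell from 107 ± 29.6 (SD, n = 3) to 63.2 ± 2.94 (SD, n = 3) (limma log2 fold change -0.71, adjusted p = 0.00919). *IL4R* fell from 22.8 ± 0.906 (SD, n = 3) to 9.0 ± 0.704 (SD, n = 3) (limma log2 fold change -1.26, adjusted p = 3.98e-05). Of the interferon receptor chains, *IFNAR2* rose from 1.49 ± 0.245 (SD, n = 3) to 2.41 ± 0.341 (SD, n = 3) (limma log2 fold change 0.45, adjusted p = 0.0177). *IFNAR1*, *IFNGR1* and *IFNGR2* were not called, and *IFNLR1* stood below the filter at 0.213 and 0.245 on average.

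Among JAK and STAT genes, *STAT2*, a STAT of interferon responses, rose by 1.51 and *JAK2* by 1.15 on the log2 scale. *STAT3*, the STAT downstream of gp130, fell from 73.1 ± 11.2 (SD, n = 3) to 45.9 ± 0.868 (SD, n = 3) (limma log2 fold change -0.65, adjusted p = 0.00242), and *STAT6*, the STAT of interleukin-4, changed by -0.62 on the log2 scale (limma, adjusted p = 0.00568). The STATs that drive *CISH* were scarce, with *STAT5A* at 0.188 and 0.603 on average, below the filter, and *STAT5B* at 3.07 ± 0.342 (SD, n = 3) and 4.97 ± 0.872 (SD, n = 3) (limma log2 fold change 0.55, adjusted p = 0.0107). The phosphorylation of STAT proteins was not measured, and whether the changes of *STAT5B* and *CISH* are linked was not tested.

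Of 14 other brakes on the pathway that were tested, 5 were higher and 2 lower. The 7 called genes are a share near the 44.5% of all genes tested. *USP18*, an interferon-induced brake on the type I interferon receptor, rose from 47.6 ± 7.57 (SD, n = 3) to 118 ± 16.5 (SD, n = 3) (limma log2 fold change 1.30, adjusted p = 1.80e-04). *SH2B3*, the gene of the JAK2 inhibitor LNK, rose by 0.56 and the repressor gene *BCL6* by 0.52 on the log2 scale, whereas *PIAS3*, an inhibitor of STAT3, and its relative *PIAS1* fell by 0.62 and 0.50, the latter with overlapping groups. Without the filter on low values, 3 were higher and 1 lower, and the same numbers held without *DUSP6* siRNA replicate 1, 2 or 3 or scrambled siRNA replicate 1. Without scrambled siRNA replicate 3, 3 were higher and 3 lower, and edgeR called 3 higher.

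**Figure D5:**
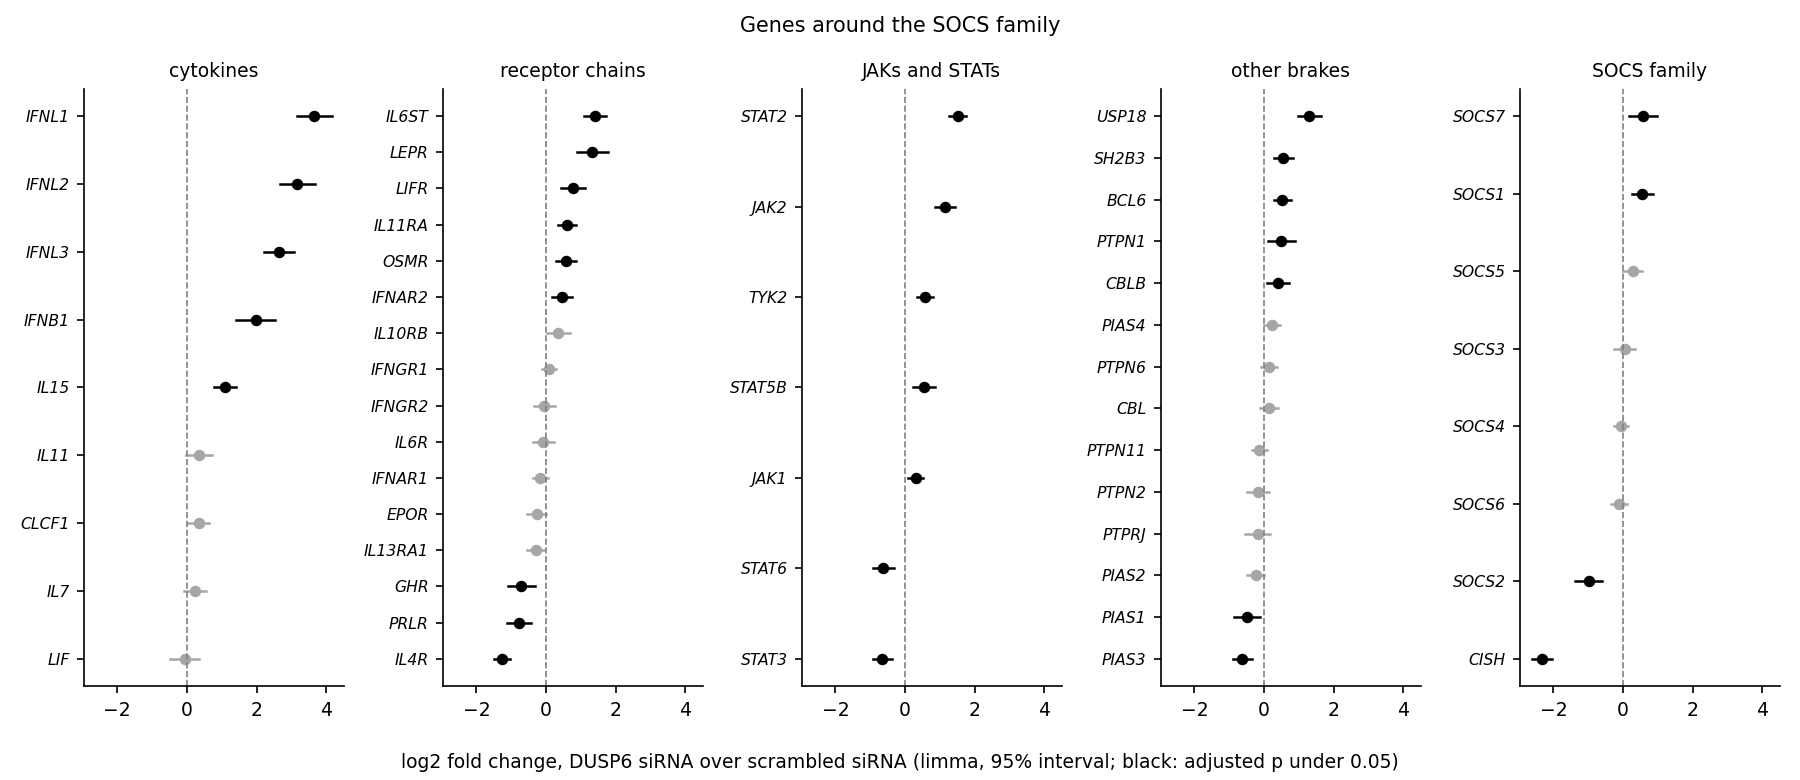
Log2 fold changes (*DUSP6* siRNA over scrambled siRNA, limma on log2(value + 1)) with 95% intervals for cytokines, cytokine receptor chains, JAK and STAT genes, other brakes on the pathway and the SOCS family. Black marks an adjusted p under 0.05 and grey the genes not called. *IFNL1* lies farthest to the right and *CISH* at -2.33 farthest to the left.

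STAT target genes were listed beside the SOCS member that shares their STAT. The lists share genes, with *BCL6* and *PIM1* in both the STAT3 and the STAT5 list, and many of the targets also respond to other factors. Of 14 tested STAT3 targets, 4 were higher and 6 lower, with a median log2 fold change of -0.34. *BCL3* changed by -1.10 on the log2 scale (limma, adjusted p = 5.15e-04), and *SERPINA3* and *JUNB* fell by 0.91 and 0.70, while *IL6ST*, itself on the list, rose. *SOCS3* lay between these directions. Of 15 STAT5 targets, 8 were tested besides *CISH* and *SOCS2*, with 2 higher and 4 lower and a median of -0.42. *BCL2L1*, which encodes the survival protein BCL-XL, fell from 161 ± 15.2 (SD, n = 3) to 77.7 ± 2.17 (SD, n = 3) (limma log2 fold change -1.03, adjusted p = 6.46e-05). *CCND1*, the cyclin D1 gene, fell by 0.61, *PRLR* is described above, and *ID1* and *BCL6* rose by 0.87 and 0.52 on the log2 scale. The largest fall among the tested genes of the STAT5 list was thus smaller than that of *CISH*, at -1.03 against -2.33.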

How the data were processed

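RNA-seq libraries of MDA-MB-453 cells, 3 per group, were compared. For these files the authors used Rsubread 2.0.0 on hg38 and counted reads over RefSeq genes at default settings, which ignore strand. They deposited 1 linear normalized signal value per gene and library. Within a library all values were whole multiples of 1 step (100% at a relative tolerance of 1e-06), from which the reads were recovered. The scaling factors in the steps were those of edgeR's TMM method. At 0.0121 to 0.0202 per read, counting error matters most for *SOCS1* and *SOCS3*.

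The main test was limma 3.58.1 in R 4.3.3 (eBayes with a trend) on log2(value + 1). It covered the 12862 genes averaging 1 or more, with Benjamini-Hochberg adjustment over all of them and calls at an adjusted p under 0.05. Within-library ratios and *CISH* were also compared with two-sided exact permutation tests. The fits were tested on simulated data. Other settings tried were a smaller pseudocount (0.1), dropping the filter or raising it to 10, median-of-ratios and quantile scaling, a block for the replicate number, eBayes with no trend, leaving out each library, and edgeR 4.0.16 (quasi-likelihood) on recovered reads.

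The members and gene lists were chosen with earlier results of these data known. Named besides the members were up to 5 called genes per list with the largest change, genes that show which parts of a pathway were scarce, the nearest tested protein-coding neighbors of called members, and the 3 profiles most like that of *CISH*, the called member with a log2 fold change of at least 1 in size. Some genes of the lists are not reported here. Gene positions and promoters came from RefSeq (GRCh38.p14), and transcript lengths and exon sharing from GENCODE v44 on hg38.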

Additional observations from a re-analysis of the deposited data

How the results depend on the processing

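*CISH*, *SOCS2* and *SOCS1* kept their direction and call under every alternative that tested them, with fold changes of -2.40 to -2.21, -1.16 to -0.79 and 0.43 to 0.96 on the log2 scale, and *DUSP6* of -2.22 to -1.76. A mean value of at least 10 left out *SOCS1*, *SOCS2* and *SOCS3*. The call of *SOCS7* was lost without a filter (0.56, adjusted p = 0.0652), and leaving out 1 library gave 0.35 to 0.75. *SOCS5* ranged from 0.15 to 0.36 when 1 library was left out. The estimates of *SOCS3* and *SOCS4*, which were not called, changed sign under quantile normalization, to -0.0771 and 0.0524, and *SOCS3* ranged from -0.0209 to 0.140 when 1 library was left out. The causes were not tested. Of all genes, 1639 were higher with a mean value of at least 10, since fewer genes were tested, and 1574 to 3183 when 1 library was left out, lowest without *DUSP6* siRNA replicate 2. The 4 ratios within pairs kept their sign under the alternatives run for them. Of 308 counts of gene lists under alternatives, 263 stayed within 1.5 times the reported count.

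The replicate numbers do not pair the libraries. Deviations from the group means correlated at 0.00500, 0.0868 and -0.0764 between libraries of the same number, and 2 of the 3 scrambled siRNA libraries correlated best with another number. With a replicate block, 2495 genes were higher and 3096 lower, and no call of a SOCS member changed.

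Depth limits *SOCS1* and *SOCS3* most, at 39 to 128 reads per library.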

Other observations

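The ubiquitin ligase that the SOCS box recruits was measured in 10 genes, all tested, of which 2 were higher and 2 lower with *DUSP6* siRNA, with a median log2 fold change of 0.13. Of all genes tested, 19.7% were higher and 24.7% lower, so these counts did not stand apart. *RBX1*, a RING subunit gene, rose from 37.9 ± 2.61 (SD, n = 3) to 68.3 ± 4.31 (SD, n = 3) (limma log2 fold change 0.83, adjusted p = 2.16e-04), and *ELOB*, the gene of elongin B, rose by 0.39, although its groups overlapped. The other RING subunit gene, *RNF7*, was at 43.8 and 46.8 on average and was not called (limma adjusted p = 0.458). Nor was *ELOC*, the gene of elongin C (limma adjusted p = 0.689). *UBE2F*, which attaches NEDD8 to CUL5, and *ARIH2*, a partner ligase, fell by 0.42 and 0.35 on the log2 scale. Both lower calls were lost when any 1 *DUSP6* siRNA library was left out. The higher calls came to 1 without scrambled siRNA replicate 1 or 2 or *DUSP6* siRNA replicate 1 or 2 and to 4 without scrambled siRNA replicate 3. *CUL5*, the cullin of SOCS complexes, was at 60.3 ± 1.58 (SD, n = 3) and 68.6 ± 6.17 (SD, n = 3), did not overlap between the groups and was not called (limma adjusted p = 0.147). Of 17 other genes of SOCS box proteins, 12 were tested, with 3 higher (*WSB1*, *SPSB3* and *ASB6*) and 1 lower (*WSB2*), beside the same 19.7% and 24.7% of all genes tested. The 3 higher became 6 without scrambled siRNA replicate 3 and 1 without *DUSP6* siRNA replicate 2.

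Among 17 genes of growth factor signaling proteins that SOCS proteins bind, 13 were tested, with 2 higher and 3 lower and a median log2 fold change of -0.13. These counts did not stand apart from the 19.7% higher and 24.7% lower of all genes tested. *ERBB2*, which encodes HER2, fell from 984 ± 94.3 (SD, n = 3) to 495 ± 33.6 (SD, n = 3) (limma log2 fold change -0.99, adjusted p = 1.59e-04), and *ERBB3*, which encodes HER3, and *PTK2B*, which encodes the kinase PYK2, fell by 0.66 and 0.88. *FLT3* rose from 2.08 ± 0.491 (SD, n = 3) to 4.70 ± 0.471 (SD, n = 3) and *INSR*, the insulin receptor gene, rose by 0.41 on the log2 scale. *EGFR*, the receptor that SOCS4 and SOCS5 are known to lower, was scarce, at 1.19 ± 0.221 (SD, n = 3) and 1.17 ± 0.0219 (SD, n = 3), and was not called (limma adjusted p = 0.951). The number of higher genes was 1 under quantile normalization and without scrambled siRNA replicate 2 or 3 or any 1 *DUSP6* siRNA library, and the number of lower genes was 5 without scrambled siRNA replicate 3.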
